A study of Arabidopsis thaliana with 8 samples.

Results

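The effect of heat on the total mRNA of Arabidopsis thaliana seedlings was read from 4 of the 8 ATH-1 arrays of the series. Of these, 2 arrays held total mRNA of heat-stressed seedlings, exposed to 38°C for 45 min, and 2 held total mRNA of control seedlings kept at 22°C. All seedlings were wild-type plants of ecotype Columbia-0, 7 days old, and were taken whole, so that the mRNA of every organ is mixed and fewer cells of a type cannot be told apart from less of an mRNA per cell. The 4 arrays were picked by their group labels. The other 4 arrays held polysome-bound mRNA of the same seedling samples and entered the fit only through the spread between replicates. On an ATH-1 array a set of short probes, the probe set, reports an mRNA as a signal, here on the log2 scale, on which a difference of 1 is a 2-fold difference. The question was which mRNAs become more or less abundant when seedlings are moved to a high temperature.

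When a plant cell is heated, proteins begin to unfold, and heat stress transcription factors bind to heat shock elements in promoters and switch on genes for chaperones. Small heat shock proteins hold unfolding proteins in a state from which HSP70 and HSP100 machines can refold them, and HSP90 with its co-chaperones keeps signalling proteins active. At the same time, the plant lowers the expression of many genes used for growth. Total mRNA reflects synthesis and decay together, and these arrays do not separate them.

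Of the 22810 probe sets, 1055 (4.63%) were higher and 1611 (7.06%) were lower in heat-stressed than in control total mRNA, at an adjusted p under 0.05 from limma and a change of at least 2-fold. Among the probe sets called higher, 414 rose at least 4-fold, 106 at least 16-fold and 46 at least 64-fold, whereas among those called lower 258 fell at least 4-fold and 3 at least 16-fold. The median log2 change was 1.73 over the higher calls and -1.38 over the lower calls, against 0.03 over all probe sets. A single gene was listed for 554 of the higher and 809 of the lower calls, and only these are named. Most genes are named by their locus identifier, since the annotation gave a symbol for 72 of the higher and 106 of the lower calls, and for a locus without a symbol no function is stated beyond its place in the small heat shock protein list or, for AT5G48570, the synonyms that RefSeq lists.

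**Figure D1:**
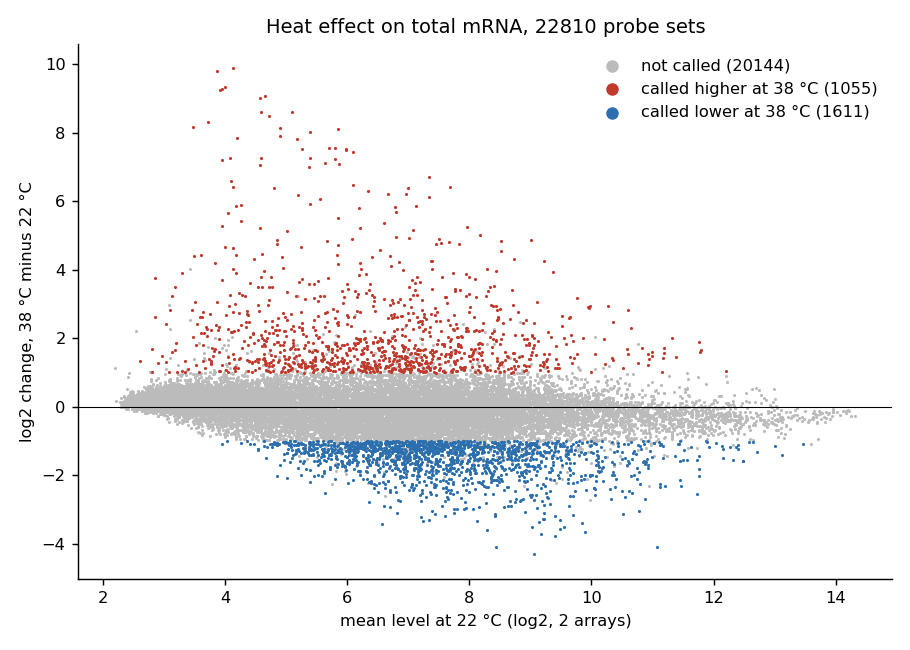
Each point is 1 of 22810 probe sets, with its mean log2 level over the 2 control arrays on the horizontal axis and its log2 change, heat-stressed minus control, on the vertical axis. Red points are the 1055 probe sets called higher and blue points the 1611 called lower; the rises reach 9.88 and the falls of single genes reach -4.32.

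The split between rises and falls depended on how the arrays were scaled, and the direction of small changes should be read with this in mind. As deposited, the array medians were 5.94 and 5.98 in heat-stressed total mRNA and 6.16 and 6.19 in control total mRNA. Of all calls, 39.6% were rises. With the 4 array medians set equal, which moved the median change of all probe sets to 0.24, there were 1507 rises and 1065 falls, and 58.6% of calls were rises. With cyclic loess, 50.3% were rises. The 24 probe sets of the poly-A spike-in controls dap, lys, phe and thr, bacterial RNAs added during labelling, were all higher on the heat-stressed arrays, by 0.40 to 0.92 with a median of 0.66. The 18 probe sets of the hybridization controls bioB, bioC, bioD and cre changed by -0.36 to 0.725, with a median of 0.328. The arrays were also shifted so that the poly-A controls, together with trp, had equal means. The 3 trp probe sets had a median level of 2.88, near the bottom of the scale. With this shift the median change of all probe sets was -0.60. It gave 569 rises and 5705 falls, so that 9.07% of calls were rises. Every one of the 1055 rises and 1611 falls kept its direction under these scalings. For equal medians and equal spike-in means this was fixed in advance, since they shift all changes by the same amount, smaller than the 2-fold threshold. With equal spike-in means the median change was 1.1 over these rises and -2.0 over these falls. Whether the amount of mRNA in the samples or the handling of the spike-ins moved the poly-A controls was not tested.

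**Figure D2:**
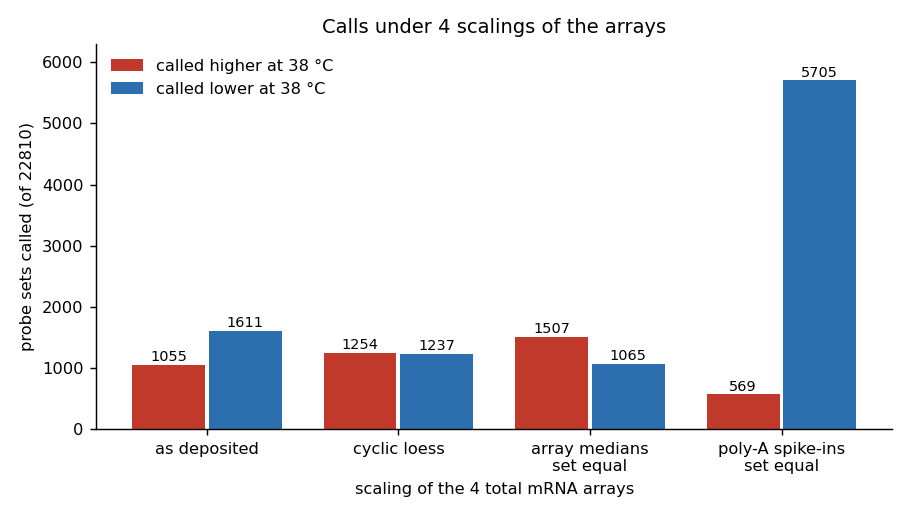
Bars give the number of probe sets, of 22810, called higher (red) or lower (blue) in heat-stressed total mRNA under 4 scalings of the 4 arrays. Falls outnumber rises as deposited and with equal spike-in means, 1611 to 1055 and 5705 to 569, while with equal medians rises outnumber falls, 1507 to 1065.

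The 15 largest rises of single genes included 6 loci listed as small heat shock proteins, and also Hop3 and AT5G48570. Of 10 loci listed as small heat shock proteins, a list drawn up for this work by locus, 8 rose and 2 did not pass, with a median log2 change of 7.62, against 0.03 over all probe sets. Over the 13350 genes counted by 1 probe set each, 4.12% were called higher and 6.04% lower. AT1G53540, of this list, had levels of 14.12 and 13.90 on the heat-stressed arrays, against 4.22 and 4.03 on the control arrays. The rise of 9.88 on the log2 scale was the largest measured for any single gene (limma adjusted p = 9.13e-05, with a standard error, SE, of 0.57). The SE draws on the spread of all 8 arrays, 2 in each of 4 groups. For this gene the 2 polysome-bound control arrays, at 6.22 and 4.17, lay furthest apart. The level of 14.12 is the highest value on its array and the control levels lie low on the scale, and how far either end limits the size of this rise was not tested. ATHSP22.0, the small heat shock protein of the endoplasmic reticulum, had 13.28 and 13.13 on the heat-stressed arrays, against 4.78 and 4.66 on the control arrays. Its rise was 8.48 (limma adjusted p = 5.23e-06, SE 0.24). For both genes the total mRNA replicates lay close together and the 2 temperatures far apart.

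The small heat shock protein list was not uniform. At 22°C, levels of its members that rose ran between a mean of 4.00 for AT1G52560 and 8.52 for AT2G19310, and at 38°C all of them had means between 12.98 and 14.01. AT2G19310, with 13.00 and 13.11 on the heat-stressed arrays and 8.46 and 8.57 on the control arrays, rose by 4.54, the smallest change among the 8. AT5G54660 had 6.75 and 6.99 on the heat-stressed arrays, against 6.81 and 6.89 on the control arrays. AT4G21870 had 7.74 and 7.95 on the heat-stressed arrays, against 7.81 and 8.35 on the control arrays. Both pairs of groups overlapped, with adjusted p of 0.93 and 0.60 from limma. The 8 rises passed under all alternatives tried for the scaling, the filter, the test and single arrays. Where the control level is close to the bottom of the scale, as for AT1G52560, the size of the rise is a poorer measure than its direction.

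Co-chaperones of HSP70 and HSP90 followed, and within each family the members differed. Hop proteins bridge HSP70 and HSP90. Hop3 had 12.88 and 12.73 on the heat-stressed arrays, against 4.60 and 5.21 on the control arrays, a rise of 7.90 (limma adjusted p = 4.54e-06, SE 0.20). Hop2 had 11.50 and 11.11 on the heat-stressed arrays, against 7.97 and 8.03 on the control arrays, and rose by 3.31. Hop1, with 8.04 and 7.95 on the heat-stressed arrays and 7.98 and 8.03 on the control arrays, changed by -0.01, and its groups overlapped. Fes1 proteins are nucleotide exchange factors of HSP70 in the cytosol. Fes1A had 12.71 and 12.58 on the heat-stressed arrays, against 6.47 and 6.22 on the control arrays, and rose by 6.30, and Fes1C rose by 1.35. Fes1B, with 9.08 and 8.20 on the heat-stressed arrays and 9.07 and 7.75 on the control arrays, had overlapping groups and an adjusted p of 0.79 from limma.

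Other chaperone partners also rose. HSA32, which plants need to keep acquired thermotolerance, had 11.96 and 12.04 on the heat-stressed arrays, against 5.89 and 6.50 on the control arrays, a rise of 5.81 (limma adjusted p = 2.12e-05, SE 0.24). SGT1A, a co-chaperone of HSP90, had 12.46 and 12.52 on the heat-stressed arrays, against 7.51 and 7.82 on the control arrays, and rose by 4.83. AT5G48570, for which RefSeq lists the synonyms ROF2 and FKBP65, an immunophilin, had 13.55 and 13.44 on the heat-stressed arrays, against 5.65 and 6.32 on the control arrays, and rose by 7.51. SQN, a cyclophilin that works with HSP90, rose by 3.11, and BOB1, a chaperone required for normal development, rose by 3.79. In a list of FKBP and cyclophilin genes drawn up for this work, which holds neither of these, none of 3 was called, with changes between -0.28 and 0.72. For each of the 5 genes named here that rose, the 2 replicates lay far closer together than the 2 temperatures.

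Chaperonins of the plastid, which fold imported proteins inside a closed chamber, also split. Cpn60beta2 had 13.02 and 12.81 on the heat-stressed arrays, against 10.03 and 9.93 on the control arrays, and rose by 2.94 (limma adjusted p = 9.13e-05, SE 0.17), and Cpn60beta3 rose by 1.08. Cpn60beta4 had 7.14 and 6.84 on the heat-stressed arrays, against 8.22 and 7.56 on the control arrays. Its change of -0.90 had an adjusted p of 0.048 from limma but was under 2-fold. In all, of 22 chaperones and co-factors with a symbol, 12 rose and none fell as called, and the median log2 change was 1.21. Among all genes, 4.12% rose and 6.04% fell. With the spike-in controls set equal, 10 of the 22 rose and 2 fell, while over all 22810 probe sets there were 569 rises and 5705 falls. Fes1C was no longer called without control replicate 2 or without heat-stressed replicate 1. A shorter list by locus, planned for HSP70, HSP90, HSP100 and Hop genes, held 6 genes, none of them for HSP90. Of these 4 rose, among them Hop2, Hop3 and Hsp70-2, and the median was 2.42. CLPB2, of the HSP100 family, changed by 0.585 and was not called.

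**Figure D3:**
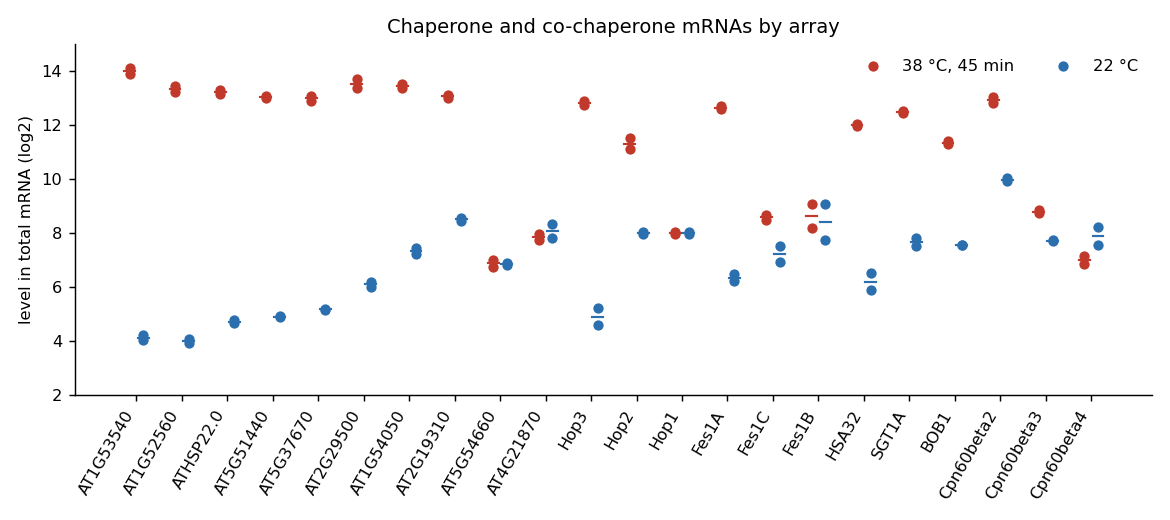
Log2 levels of 22 chaperone and co-chaperone mRNAs in total mRNA, with the 2 heat-stressed arrays in red, the 2 control arrays in blue and a short line at each mean. The first 10 are the loci listed as small heat shock proteins, of which 8 have heat-stressed levels near 13 or 14; Hop1, Fes1B, AT5G54660 and AT4G21870 have overlapping groups.

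The other 7 of the 15 largest rises belonged to loci with neither a symbol nor a place in the lists. AT1G71000 had 12.58 and 11.50 on the heat-stressed arrays, against 4.05 and 3.38 on the control arrays, and rose by 8.32. AT1G21550 had 12.14 and 11.96 on the heat-stressed arrays, against 4.40 and 3.99 on the control arrays, and rose by 7.86. AT5G25450, AT1G72660, AT2G20560, AT5G10695 and AT5G07330 rose by 7.00 to 7.53. No heat-stressed array of these loci came near a control array. AT3G10020 was among the 5 rises with the highest heat-stressed mean, at 13.93 and 13.81 on the heat-stressed arrays and 9.56 and 8.45 on the control arrays, and rose by 4.87 (limma adjusted p = 5.46e-04, SE 0.42).

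Genes of the protein quality control of the endoplasmic reticulum rose in part. In this compartment, unfolded proteins trigger the release of membrane-tethered bZIP factors and are removed by Derlin channels. DER1, a Derlin, had 11.39 and 10.99 on the heat-stressed arrays, against 7.76 and 7.77 on the control arrays, and rose by 3.42 (limma adjusted p = 5.93e-05, SE 0.18). DER2.1 rose by 1.94, whereas DER2.2 changed by -0.08 with overlapping groups. BZIP28 had 9.78 and 9.93 on the heat-stressed arrays, against 7.77 and 7.85 on the control arrays, and rose by 2.05 (limma adjusted p = 1.89e-04, SE 0.14). BZIP17 had 7.83 and 7.94 on the heat-stressed arrays, against 6.97 and 6.97 on the control arrays. BZIP60 had 8.58 and 8.64 on the heat-stressed arrays, against 8.20 and 8.08 on the control arrays. Their changes of 0.91 and 0.47 had adjusted p of 0.0026 and 0.03 from limma but did not reach 2-fold. Of 16 such genes, 3 rose, none fell as called, and the median was 0.38, where 4.12% of all genes rose and 6.04% fell.

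Some genes of protein turnover rose. ATG8 proteins are ubiquitin-like proteins that coat the membrane of autophagosomes. Of 10 autophagy genes with a symbol, 3 rose and none fell as called, where 4.12% of all genes rose: ATG8E by 1.84, ATG8H by 1.53 and APG8A by 1.12. ATG8E had 9.44 and 9.88 on the heat-stressed arrays, against 7.83 and 7.80 on the control arrays. ATG8C, with 9.39 and 9.28 on the heat-stressed arrays and 8.64 and 8.73 on the control arrays, changed by 0.65 and was not called. With the spike-in controls set equal, the list's median of 0.50 became -0.12 and 1 of the 3 calls remained, and leaving out control replicate 1 also left 1. PUB19, a U-box ubiquitin ligase, had 7.90 and 8.40 on the heat-stressed arrays, against 5.20 and 6.13 on the control arrays, and rose by 2.48, the only member called of 11 U-box ligases. Of 12 ubiquitin-specific proteases, UBP18 rose by 1.06 and UBP21 fell by 1.31, and of 12 ubiquitin-conjugating enzymes UBC16 rose.

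Genes known from other stresses moved both ways, where 4.12% of all genes rose and 6.04% fell. Of 8 zinc finger and ERF factors of stress with a symbol, STZ rose, and TINY2 and tny fell by 1.36 and 1.14. Both falls were lost in a limma test against a 1.5-fold change, and that of tny also with equal medians and with cyclic loess. STZ, a zinc finger repressor induced by salt and cold, had 8.85 and 8.38 on the heat-stressed arrays, against 6.54 and 5.47 on the control arrays, and rose by 2.61 (limma adjusted p = 0.0055, SE 0.41). TIL, a temperature-induced lipocalin of membranes, had 13.43 and 13.43 on the heat-stressed arrays, against 10.55 and 10.65 on the control arrays, and rose by 2.83. SRC2, like TIL picked from the calls by its symbol, rose by 2.58 and SIS, annotated as salt-induced and serine-rich, by 3.11. Of 10 late embryogenesis abundant and cold-regulated genes, COR47 and AtLEA4-1 rose and none fell as called, with a median of 0.43. A wider match of 16 genes, which took in unrelated ones such as CLPP4, held 1 rise, with a median of 0.15. The dehydrin COR47 had 13.62 and 13.26 on the heat-stressed arrays, against 12.16 and 11.42 on the control arrays, and rose by 1.65. Of 7 calmodulin-like calcium sensors, 2 rose and 1 fell. CML37 had 4.92 and 4.74 on the heat-stressed arrays, against 3.13 and 3.22 on the control arrays, and rose by 1.66, CML23 rose by 1.22, and CML42 fell by 1.53, a call lost without control replicate 2. TET2 and TET8, of the tetraspanin family of membrane proteins, rose by 2.53 and 1.84 among 15 members.

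In 3 other cold-regulated genes the replicates differed more than the temperatures. COR15B had 11.23 and 6.32 on the heat-stressed arrays, against 12.27 and 8.23 on the control arrays. COR15A had 11.48 and 8.60 on the heat-stressed arrays, against 12.03 and 10.07 on the control arrays. COR27 had 7.01 and 3.84 on the heat-stressed arrays, against 8.65 and 3.51 on the control arrays. In all 3, replicate 1 was the higher at both temperatures, the groups overlapped, and the adjusted p was between 0.58 and 0.85 from limma. Over all probe sets, 127 had replicate 1 above replicate 2 by more than 1 at both temperatures, 105 had it below by more than 1 at both, and none differed by that much in opposite ways. Of these 232 probe sets, 2 were called. The study's methods set heat against control within each replicate when polysome content was measured, while what else samples of 1 number shared is not given there. With the replicate number as a block, COR15B and COR15A were called lower, with limma adjusted p of 0.0094 and 0.037, and both were lower at 38°C within each number. COR27 was not called, with an adjusted p of 0.33 in the same limma fit.

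In energy metabolism, 1 of 5 alternative NADH dehydrogenases and 1 of 6 genes of succinate dehydrogenase and cytochrome c rose, where 4.12% of all genes did. CYTC-2, a cytochrome c, had 11.06 and 10.59 on the heat-stressed arrays, against 8.56 and 9.39 on the control arrays, and rose by 1.85. NDB2, an alternative NADH dehydrogenase of the outer face of the inner mitochondrial membrane, rose by 1.12 (limma adjusted p = 0.044), a call that was lost when any of 5 single arrays was left out. MCCA, a subunit of the carboxylase of leucine breakdown, rose by 1.70, and AKINBETA1, a regulatory subunit of the SnRK1 kinase, rose by 2.23.

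Cell wall genes were among the falls with a symbol. Of 15 GH9 genes 2 fell, of 8 cellulose synthase-like genes 2, of 22 TBL genes 2, and of 10 xyloglucan endotransglucosylases none, and no member of these families rose as called. Over all genes, 6.04% fell. GH9C2, of the family of cellulases, had 5.60 and 5.67 on the heat-stressed arrays, against 9.24 and 9.56 on the control arrays. It fell by 3.77 on the log2 scale (limma adjusted p = 4.82e-05, SE 0.18), the only gene with a symbol among the 15 largest falls. GH9B8 also fell, by 1.68, a call lost without control replicate 2 or heat-stressed replicate 1, and the other 13 GH9 genes were not called. CSLC5, of the family that builds the xyloglucan backbone, had 4.33 and 5.27 on the heat-stressed arrays, against 7.05 and 7.08 on the control arrays, and fell by 2.27. COB, which orients cellulose during elongation, fell by 1.53. TBL28 and TBL26, of a family that acetylates wall polysaccharides, fell by 2.12 and 1.62, and the other 20 measured members were not called.

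Expansins, which loosen the wall as cells grow, moved in opposite directions. Of 18 members, 3 rose and 3 fell, where 4.12% of all genes rose and 6.04% fell, with a median of -0.00 on the log2 scale. EXPA8 had 7.81 and 8.52 on the heat-stressed arrays, against 10.25 and 10.98 on the control arrays, and fell by 2.45 (limma adjusted p = 0.0057, SE 0.39). EXPA4 and EXPA15 fell by 2.21 and 2.15. EXPA16 had 6.72 and 7.61 on the heat-stressed arrays, against 4.45 and 4.26 on the control arrays, and rose by 2.81 (limma adjusted p = 0.0031, SE 0.38). EXLA1 and EXLA2, of the expansin-like branch, rose by 2.43 and 1.36. EXPA9, with 4.96 and 5.98 on the heat-stressed arrays and 6.56 and 7.26 on the control arrays, had separate groups and an adjusted p of 0.077 from limma. EXO, a protein of cell expansion that responds to brassinosteroid, rose by 2.44. The 5 calls of EXPA8, EXPA4, EXPA15, EXPA16 and EXLA1 passed under every scaling tried.

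Genes of glucosinolates, the defence compounds of the cabbage family, appeared among the falls. UGT74B1, the glucosyltransferase of their core pathway, had 6.98 and 6.61 on the heat-stressed arrays, against 9.24 and 9.11 on the control arrays, and fell by 2.38 (limma adjusted p = 9.05e-04, SE 0.23). GTR2 and GTR1, which transport them, fell by 2.20 and 2.16. GTR1 had 5.78 and 5.12 on the heat-stressed arrays, against 7.68 and 7.54 on the control arrays. MYC4, an activator of the pathway in the jasmonate response, had 4.03 and 3.73 on the heat-stressed arrays, against 4.98 and 5.35 on the control arrays, and fell by 1.28. These 4 genes were picked from the calls by their symbols, and no list of the pathway was large enough to count. Of 48 UDP-glycosyltransferases with a symbol, 2 rose, UGT73C1 by 2.25 and UGT71C2 by 2.11, and 5 fell. Among all genes 4.12% rose and 6.04% fell, so the share of rises was near that of all genes.

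Of 8 histone genes with a symbol, 3 fell, each encoding histone H2B, and none rose, with a median of -0.44 on the log2 scale. Among all genes 6.04% fell and 4.12% rose. HTB1 had 6.97 and 6.87 on the heat-stressed arrays, against 9.19 and 9.30 on the control arrays, and fell by 2.33 (limma adjusted p = 1.06e-04, SE 0.14). HTB2 and HTB11 fell by 2.22 and 1.65, and these 3 calls held under every alternative tried. HTB4 had 10.43 and 10.55 on the heat-stressed arrays, against 10.68 and 10.73 on the control arrays, a change of -0.21 that was not called. The probe sets of H2B genes may share sequence, which was not examined. Of 7 tubulins, which form microtubules, TUB7 fell by 1.18, a call lost with equal medians and in a limma test against a 1.5-fold change. TUA6, with 10.80 and 10.64 on the heat-stressed arrays and 11.62 and 11.48 on the control arrays, changed by -0.83 and was not called. NGA1, a transcription factor of leaf shape, had 4.88 and 4.85 on the heat-stressed arrays, against 7.14 and 7.75 on the control arrays, and fell by 2.58.

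**Figure D4:**
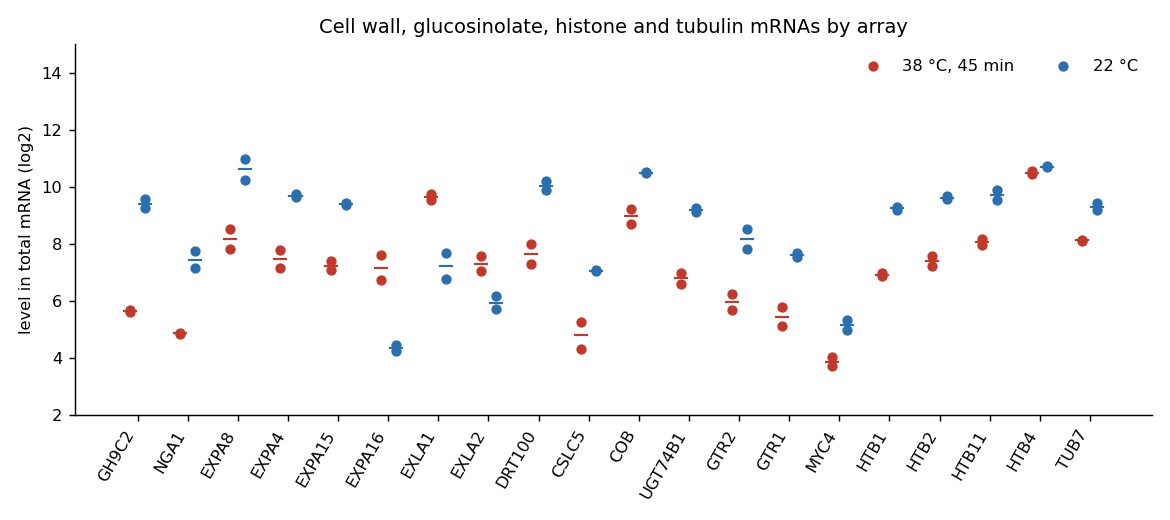
Log2 levels of 20 mRNAs of the cell wall, glucosinolates, histones, tubulin and leaf growth in total mRNA, with the 2 heat-stressed arrays in red, the 2 control arrays in blue and a short line at each mean. EXPA16, EXLA1 and EXLA2 are higher at 38°C, HTB4 has close groups, and the other 16 are lower at 38°C.

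The falls otherwise were spread over many loci. AT3G44450 had 5.31 and 4.17 on the heat-stressed arrays, against 8.92 and 9.19 on the control arrays, and fell by 4.32, the largest fall of any single gene (limma adjusted p = 0.0015, SE 0.48). AT2G28720 had 4.20 and 4.49 on the heat-stressed arrays, against 8.41 and 8.45 on the control arrays, and fell by 4.08 (limma adjusted p = 8.69e-05, SE 0.23). AT3G61820, AT5G41140, AT5G66985, AT2G14460, AT3G04760, AT1G48330 and AT3G50270 fell by 3.14 to 3.51. AT1G48330 was the least certain of these, with 4.82 and 3.98 on the heat-stressed arrays and 8.61 and 6.59 on the control arrays. Its adjusted p of 0.038 from limma was 0.16 without control replicate 1, and leaving out any of 5 of the 8 arrays took away the call.

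The 5 falls of single genes with the highest control levels were between 1.01 and 1.59 in size. AT3G16370 had 10.48 and 11.29 on the heat-stressed arrays, against 12.43 and 12.52 on the control arrays, and fell by 1.59 (limma adjusted p = 0.014), a call lost without either control array or heat-stressed replicate 1. AT2G10940, AT1G74730, AT5G38980 and AT1G18540 fell by 1.01 to 1.23. With the array medians set equal or with cyclic loess, AT1G74730, AT5G38980 and AT1G18540 were no longer called. Other falls with a symbol were FUG1, a translation initiation factor of plastids, by 1.61, CRR21, an RNA editing factor of plastids, by 2.28, and BIK1, a kinase of pattern-triggered immunity, by 1.31. SWEET13, a sucrose transporter, fell by 1.89, while SWEET1, a glucose transporter, rose by 1.54.

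Few probe sets were called at the low end of the level range. Of 5740 probe sets with a control mean below 4, 1.25% were called higher and 1 was called lower. Close to the bottom of the scale there is little room for a fall, and its part in this count was not tested. Between 4 and 6, 6.79% were higher and 4.04% lower, and between 6 and 8, 6.43% were higher and 11.8% lower. At a control mean of 10 or more, 2.05% of 1418 probe sets were higher and 9.24% lower. Among the calls, the median fall was -1.25 at control means between 4 and 6 and -1.55 at 10 or more. The median level of the higher calls was 8.52 in heat-stressed and 6.49 in control total mRNA, and that of the lower calls 5.96 in heat-stressed and 7.50 in control total mRNA. All calls had heat-stressed and control arrays that did not overlap, as did 7991 of all probe sets in the direction of a rise and 7274 in that of a fall. The median difference between replicates was 0.22 in heat-stressed and 0.17 in control total mRNA.

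Transcripts of the mitochondrial genome, which encodes a few subunits of the respiratory chain, stood apart from those of the nucleus. Of 16 mitochondrion-encoded genes, 8 rose and none fell as called, with a median of 1.81, where 4.12% of all genes rose. The cox2 mRNA, of a subunit of cytochrome c oxidase, had 7.95 and 5.89 on the heat-stressed arrays, against 4.11 and 3.63 on the control arrays, and rose by 3.05 (limma adjusted p = 0.023, SE 0.71). The nad9 mRNA, of a subunit of complex I, had 6.87 and 5.65 on the heat-stressed arrays, against 3.80 and 3.45 on the control arrays, and rose by 2.64. The nad6 mRNA had 9.31 and 5.61 on the heat-stressed arrays, against 3.41 and 3.44 on the control arrays, and with this spread its change of 4.04 had an adjusted p of 0.064 from limma. In 15 of the 16 genes both heat-stressed arrays were above both control arrays, as they were for 7991 of all 22810 probe sets.

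The size of this rise rested on heat-stressed replicate 1. It was above replicate 2 in 15 of the 16 genes, and the median levels were 7.08 and 5.64 on the heat-stressed arrays, against 4.60 and 4.38 on the control arrays. Without heat-stressed replicate 1, or without either control array, none of the 16 was called, and without heat-stressed replicate 2, 11 were. With only the 4 total mRNA arrays in the fit, 4 were called. These RNAs mostly lack long poly-A tails, and a control probe set of 25S ribosomal RNA, which also lacks them, had 11.96 and 12.23 on the heat-stressed arrays, against 11.13 and 9.00 on the control arrays (change 2.03, limma adjusted p = 0.057). The part of such RNA in the result was not tested.

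A copy of much of the mitochondrial genome lies in chromosome 2, and loci with identifiers starting AT2G07 include it. Of 66 such genes, 7 were called higher and none lower, against 4.12% and 6.04% of all genes. The largest change was that of AT2G07707, with 9.08 and 7.66 on the heat-stressed arrays and 4.65 and 4.53 on the control arrays, a rise of 3.78 (limma adjusted p = 0.0046, SE 0.57). AT2G07722 and AT2G07741 rose by 3.69 and 3.65. Heat-stressed replicate 1 was above replicate 2 in 45 of the 66. A probe set cannot tell transcripts of the copy and of the mitochondrion apart where their sequences are the same, so these calls are uncertain as changes of nuclear genes.

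Of 69 plastid-encoded genes, most of them for photosynthesis and plastid translation, none was called as deposited, with a median of 0.41. Control replicate 2 was the lowest of the 4 arrays in 53 of the 69. For example, psbD, of a reaction centre protein of photosystem II, had 9.46 and 8.93 on the heat-stressed arrays, against 8.43 and 5.96 on the control arrays, a change of 2.00 with an adjusted p of 0.16 from limma. With the replicate number as a block, 11 of them were called higher, as were 1196 of all 22810 probe sets. With the spike-in controls set equal, the median was -0.21 and 1 was called lower. Of 34 nuclear genes of chlorophyll synthesis and the thylakoid, LIL3:1 fell by 1.15 and the others were not called. Their median was -0.20 as deposited and 0.02 with equal medians, where LIL3:1 was not called. With equal spike-in means it was -0.82, and 11 were called lower. Over all 22810 probe sets, that scaling gave a median change of -0.60 and 5705 lower calls.

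**Figure D5:**
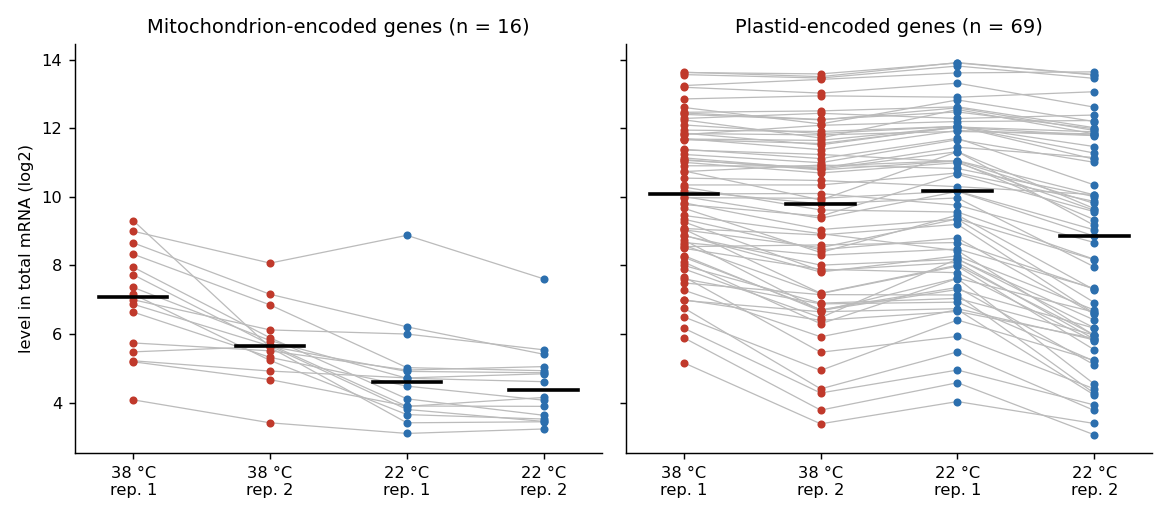
Log2 levels of 16 mitochondrion-encoded and 69 plastid-encoded genes on the 2 heat-stressed arrays (red) and the 2 control arrays (blue) of total mRNA, with grey lines joining the values of a gene and black bars at the median of each array. The mitochondrial medians are 7.08 and 5.64 at 38°C against 4.60 and 4.38 at 22°C; among plastid genes control replicate 2 has the lowest median, 8.86.

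The tissue could be checked only in part. The antenna protein gene LHCB4.1, of green tissue, had 13.65 and 13.71 on the heat-stressed arrays, against 13.89 and 13.78 on the control arrays. PYK10, a beta-glucosidase of roots and ER bodies, had 12.46 and 12.73 on the heat-stressed arrays, against 13.26 and 13.23 on the control arrays. With an adjusted p of 0.034 from limma, the change of -0.65 in PYK10 was under 2-fold. EXPA7, an expansin of root hairs, had 5.98 and 7.11 on the heat-stressed arrays, against 5.46 and 6.28 on the control arrays. LHCB4.2 and LHCB4.3 changed by -0.38 and 0.18. The oil body protein OLEO3 of seeds was between 3.90 and 4.18 on the 4 arrays. None of these was called, and no pollen marker had a named probe set.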

How the data were processed

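The deposited values are log2 signals, made by the authors with robust multi-array averaging (RMA, affy), without a version given in the submitters' processing notes. The authors also scaled the heat-stressed polysome-bound columns for polysome content, which does not enter the total mRNA columns. All 8 columns were used. The replicates are 2 biological replicates per group by the study's methods. Their number limits the precision, and detection calls were not used here.

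Heat-stressed minus control total mRNA was tested with limma (version 3.58.1, R 4.3.3), as lmFit followed by eBayes. Each of the 4 groups had its own mean across the 8 arrays, which leaves 4 degrees of freedom. The fit counts the 8 arrays as independent, although each seedling sample gave a total and a polysome-bound array. With the seedling sample as a random block, the estimated correlation within a sample was 0.606. The 4 total mRNA arrays alone leave 2 degrees of freedom. The p-values of all 22810 probe sets were adjusted together by Benjamini-Hochberg. Calls needed an adjusted p below 0.05 together with a 2-fold or larger change. In data simulated for this comparison over 22810 probe sets, the fit called 72.3% of changes of 1.5 and 83.3% of changes of 2 on the log2 scale. Only 300 changes of each size were set over 3 simulations, a far smaller share than the 11.7% of probe sets called here. How far the arrays of 1 seedling sample vary together was also set in advance, and false calls are not given here. The shares called in the simulation therefore need not hold for the data.

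Names came from the platform annotation and RefSeq (TAIR10.1). Of 13513 probe sets with 1 gene, 13436 matched. Lists count 1 probe set per gene, that with the highest mean over the total mRNA arrays. Named are the 15 largest rises and falls with 1 gene, the 5 highest-level rises and falls, and up to 4 members each way of a list and 2 not called. Of 78 lists drawn by locus, symbol or product, 27 held at least 3 genes and 51 held fewer, as the reference gave no product names. The lists of heat stress transcription factors, J proteins and cytosolic ribosomal proteins held no gene, so their lack of mention is not a result. A further 53 families were drawn from symbols, and genes named from them were picked after their values were seen. These families count only genes with a symbol and a probe set of 1 gene, so other members are left out. The members and lists were chosen with earlier results of these data known. No sequence was used here, so the planned count of promoter motifs was not made.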

Additional observations from a re-analysis of the deposited data

How the results depend on the processing

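The total of calls and its split moved with the scaling and the threshold. No called gene or probe set changed direction, but most alternatives could not have reversed a call. The shifts of the arrays were smaller than the 2-fold threshold, and the heat-stressed and control arrays of all calls did not overlap. As deposited, 1055 rises and 1611 falls were called, and 39.6% of calls were rises. With equal medians there were 1065 falls and 58.59% of calls were rises, with cyclic loess 50.34%, and with equal spike-in means 569 rises and 5705 falls, 9.069% rises. With 1 probe set per gene, 551 rises and 807 falls were called, since fewer probe sets were tested. With limma's treat against 1.5-fold there were 616 rises and 706 falls (46.60% rises), and without a fold threshold 2196 and 3290. Leaving out 1 array gave 867 to 1052 rises, 1205 to 1604 falls and 38.79% to 42.07% rises. For an arm left with 1 array, that array is assumed to vary like the others.

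Replicates of 1 number deviated together, with r = 0.523 across probe sets between the differences of replicate 1 minus 2 at both temperatures, but with 2 pairs this is a hint. With the replicate block, 1196 rises and 1857 falls were called, including all calls made without it, and with the seedling sample as a random block 1130 and 1723. On the 4 total mRNA arrays alone 973 rises and 1438 falls were called without a block. With the block on these arrays, an alternative added after the data were seen, the counts were 1151 and 1798.

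Among the genes followed through the alternatives, 43 lost their call without control replicate 1, 60 without control replicate 2, 54 without heat-stressed replicate 1 and 31 without heat-stressed replicate 2. These include RALFL22, RALFL31, CLE26, TBL26, UBC16, UBP18, SWEET1 and SWEET13. The largest loss among the genes followed was in limma's treat against 1.5-fold, where 99 lost their call. With equal medians 44 lost it, with cyclic loess 28 and with equal spike-in means 26.

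Genes that were not called changed sign in places. With equal spike-in means, changes were -0.0398 for CLPB2, -0.60 for AT5G54660, -0.39 for Fes1B and -0.15 for BZIP60. With equal medians and with cyclic loess they were 0.06 and 0.12 for LHCB4.1, and 0.20 and 0.0887 for Hop1. Over the arrays left out in turn, changes ran between -0.10 and 0.14 for AT5G54660, -3.23 and 1.92 for COR27, -0.43 and 0.89 for Fes1B, -0.505 and 0.035 for AT4G21870, -0.055 and 0.035 for Hop1, -3.93 and 0.98 for COR15B, and -2.45 and 0.43 for COR15A. The promoter motif alternatives were not run.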

Other observations

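The calls were also set beside gene order and gene span, as a description with no test. Among 5808 pairs of neighbouring protein-coding genes that were both measured, in the order of assembly TAIR10.1, 281 had a first gene that rose. In 10.7% of these the second gene rose too, against 4.24% of all pairs. For falls the shares were 6.10% and 6.42%. In 29 pairs, 1 gene rose and the other fell. HSA32, which rose by 5.81, lies between AT4G21310 and AT4G21323, which rose by 2.61 and 2.32. AT1G66080 and AT1G66090 rose by 6.19 and 4.43. AT4G15680, AT4G15690 and AT4G15700 rose by 4.01, 2.02 and 2.73. Neighbours of like sequence can share probes, which was not examined.

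The median span in TAIR10.1, introns included, was 2451 bases over 800 nuclear protein-coding genes that fell and 2044 over 538 that rose, against 2097 over the 10880 that were not called. Of genes spanning at least 3290 bases, 8.76% fell and 3.23% rose, and of those spanning at most 1273 bases, 4.42% fell and 5.03% rose. Of 923 loci annotated as pseudogenes, 2 rose and 1 fell, against 4.12% and 6.04% of all genes.

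None of 40 MADS box genes, of which 24 were below 4 on every total mRNA array, was called. Of 7 WRKY factors and of 7 Aux/IAA repressors of auxin signalling with a symbol, none was called, where 4.12% of all genes rose and 6.04% fell. Members without a symbol were not counted, so these counts do not describe the whole families. Of 7 CLE signalling peptides, CLE41 and CLE26 fell by 1.25 and 1.28. Of 11 RALF peptides, RALFL22 rose by 1.40, and RALFL34 and RALFL31 fell by 1.47 and 1.03. WES1, which joins auxin to amino acids, rose by 1.43 and was the only call among 12 genes of auxin synthesis and conjugation. Without control replicate 1 or either heat-stressed array, WES1 was not called.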
